A study of Mus musculus with 12 samples.

Results

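Mitochondrial ribosomal protein genes were followed across pressure-loaded and sham-operated mouse ventricles. The genes were taken by symbol: every probe set that the array annotation assigns to a single gene whose symbol is Mrpl or Mrps followed by a number, with an optional trailing letter, and with pseudogenes left out. Where a gene had several such probe sets, the one with the highest mean was used. This gave 77 genes of the 19938 that had a single-gene probe set, from 85 probe sets in all; 8 genes had more than 1. 1 further probe set carried a symbol of the family together with another gene and was not used. The rule used symbols alone, so no measured value decided membership.

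The study placed metal clips around the great arteries of male C57BL/6 mice. Pulmonary artery clipping (PAC) loads the right ventricle (RV), and transaortic constriction (TAC) loads the left ventricle (LV). Hearts were perfused and cut into LV, septum and RV, and RNA of the RV or LV was measured on 12 Affymetrix arrays, 2 per group. The 6 groups were sham RV at 3 weeks after operation (mice aged 15 weeks), PAC RV at 1 week (13 weeks old), PAC RV at 3 weeks (15 weeks old), PAC RV at 6 weeks (18 weeks old), sham LV at 3 weeks (15 weeks old) and TAC LV at 3 weeks (15 weeks old). No group carried a genetic change. The sham hearts were taken at 3 weeks only, so age and time since operation differ together with clipping in the comparisons at 1 and 6 weeks. The labels do not say whether the 2 arrays of a group came from separate mice, nor whether sham RV and sham LV came from the same hearts, so the p-values measure the spread between arrays, which may be technical.

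The mitochondrial ribosome translates the few messenger RNAs that mitochondrial DNA encodes, all of them for subunits of the respiratory chain and ATP synthase. Its RNAs come from mitochondrial DNA, but all of its proteins are encoded in the nucleus, made in the cytosol and imported. Mrpl genes encode proteins of the large subunit, which joins amino acids, and Mrps genes those of the small subunit, which decodes the message. Some of the proteins have relatives in bacterial ribosomes and others were added during mitochondrial evolution. Heart muscle is rich in mitochondria, and inherited defects of several of these proteins cause cardiomyopathy.

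Values are log2 expression as deposited, and a change is a difference of group means on that scale, followed by its standard error (SE) where given. A gene was called, and is said to have risen or fallen, where limma's moderated test gave an adjusted p under 0.05 (Benjamini-Hochberg over all 19938 genes). A single comparison of 2 arrays with 2 could not go below p = 0.33 in an exact permutation test. A comparison with more arrays has a lower floor. With 2 arrays a group, every call rests on the spread pooled over all groups. Correlation between the 2 arrays of a group ranged from 0.992 to 0.997 over all genes. Cardiomyocyte marker genes (8, among them Myh6, Tnnt2 and Ryr2) had mean levels of 13.29 to 13.31 in sham RV and 13.21 to 13.29 after PAC. The second PAC 1 week array had the highest mean level of the 8 fibroblast markers (11.2) and of the 6 atrial markers (10.7) among the 12 arrays, and the second sham LV array was above its partner in atrial markers (9.16 against 7.97). Results are therefore also given without these 2 arrays. The second PAC 3 week array was above its partner in atrial markers by a wider margin than either of them. It was left out only by itself, not together with them. In bulk tissue, fewer cells of a type and less RNA per cell cannot be told apart.

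All 77 mitoribosomal genes had mean signals above the median of all genes (6.74). Their mean signals ran from 6.91 (Mrpl22) to 10.97 (Mrpl18); probe sets differ in affinity, so this range does not order the transcripts by abundance. The 6 group means of a gene lay close together: their range was 0.08 for Mrps34, a small subunit protein, 0.25 at the median and 0.62 for Mrpl32, a large subunit protein. The median range over all genes was 0.31.

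Clipping of the pulmonary artery was set against sham RV with the 3 times averaged, which puts 6 arrays against 2. Of the 77 genes, 9 fell and 3 rose, and the changes ran from -0.47 to 0.29. The genes that fell included the stalk protein gene Mrpl12, the subunit-interface protein gene Mrpl14, the ribosome rescue factor gene Mrpl58 and the small subunit genes Mrps35, Mrps15, Mrps7 and Mrps24. Those that rose were Mrpl32, Mrpl35 and Mrpl50. Among all genes tested, 12.6% were called lower and 12.2% higher, against 11.7% and 3.9% of the mitoribosomal genes, so with the deposited scaling the share that fell was near that of all genes. All 77 lie above the median level, and of the genes there 7.83% were called lower and 21.5% higher. With cyclic loess 26.0% of the family and 6.63% of all genes were called lower. All 6 PAC arrays were below both sham RV arrays in 24 genes of the family (31.2%, against 21.8% of all genes) and above both in 4 (5.19%, against 16.8%). Counting direction without a threshold, 56 of the 77 had a negative and 21 a positive change, with a median of -0.08 against -0.05 over all genes and 0.07 over genes above the median level.

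**Figure D1:**
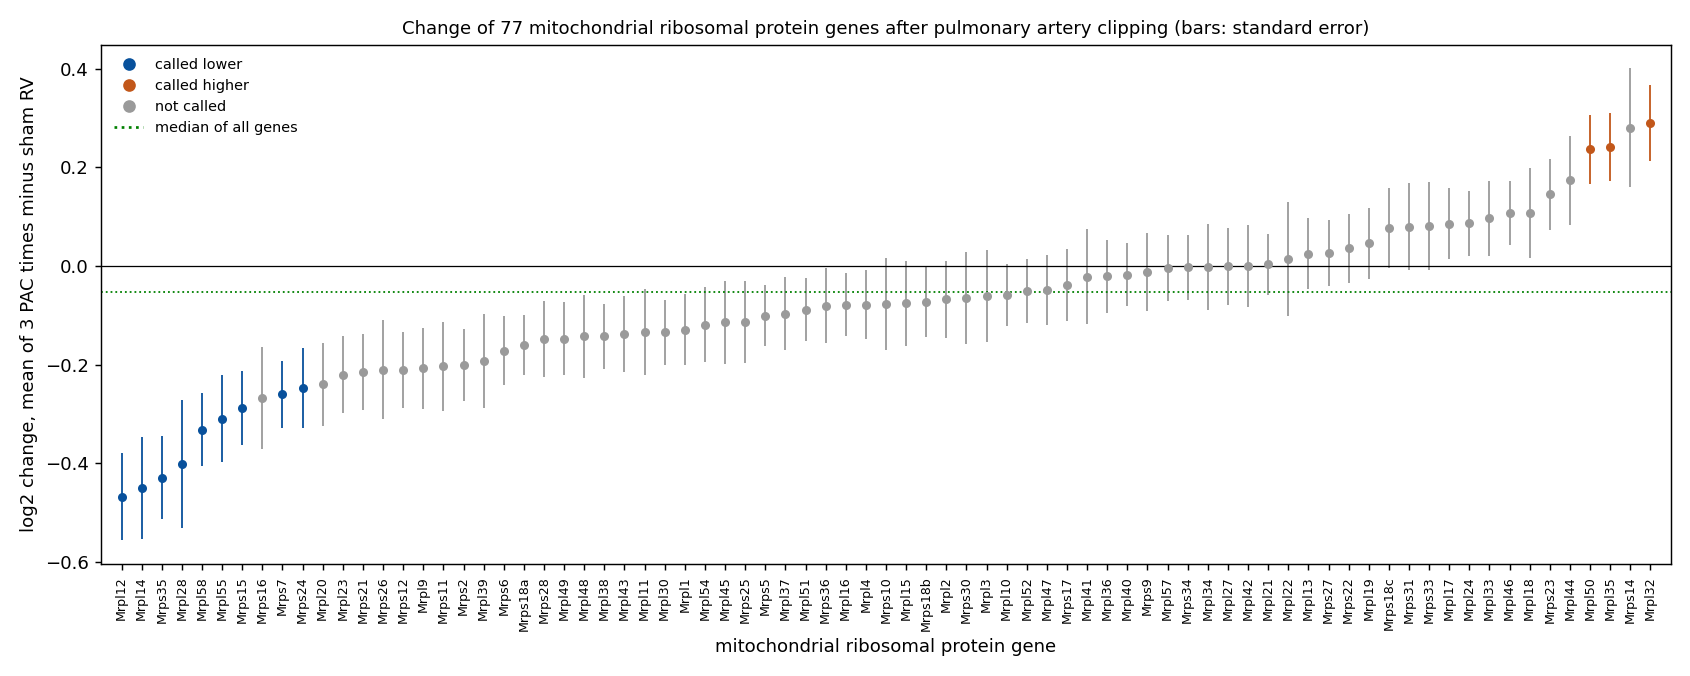
Log2 change (y axis) of each of the 77 mitochondrial ribosomal protein genes (x axis, ordered by change) between the mean of the 3 PAC times and sham RV; points are changes, bars are standard errors and colours mark the calls. 9 genes were called lower, 3 were called higher, and the changes ran from -0.47 to 0.29; the dotted line is the median of all genes (-0.05).

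The large subunit gave the largest decrease. Mrpl12 encodes the protein of the flexible stalk that recruits translation factors to the ribosome. It stood at 9.49 and 9.57 on the sham RV arrays, at 9.11 and 8.98 after 1 week of clipping, at 9.20 and 8.91 after 3 weeks and at 9.16 and 9.03 after 6 weeks. The sham LV arrays gave 9.03 and 8.97 and the TAC arrays 9.08 and 9.17. The 2 sham RV arrays were thus above every other array, and the remaining 10 lay within 8.91 to 9.20. Averaged over the 3 times, Mrpl12 fell by 0.47 ± 0.09 (SE; limma adjusted p = 0.0084), a 1.38-fold decrease, and it was called lower at each single time. The call was kept without the first sham RV array (adjusted p = 0.042) and lost without the second (adjusted p = 0.084).

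Mrpl14 encodes a protein at the face where the subunits meet. Its sham RV values were 8.74 and 8.75, and its 6 PAC values ran from 8.09 to 8.44 with a median of 8.32. The mean change was -0.45 ± 0.10 (limma adjusted p = 0.015); at 1 week alone it fell by 0.51. Mrpl28, which encodes a protein with a bacterial relative, read 8.93 and 8.92 in sham RV and 8.30 to 8.78 after PAC. It fell by 0.40 ± 0.13 (limma adjusted p = 0.046). These 2 genes and Mrpl12 were the only ones to fall of the 29 large subunit genes grouped here as having bacterial relatives.

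Mrpl58, also known as Ict1, encodes a hydrolase built into the large subunit that frees the peptide from stalled ribosomes. Its sham RV arrays read 9.18 and 9.16. The PAC arrays read 8.94 and 8.86 at 1 week, 8.80 and 8.80 at 3 weeks and 8.83 and 8.80 at 6 weeks, and no PAC array reached the sham RV values. It fell by 0.33 ± 0.07 (limma adjusted p = 0.014), and it was called at 3 and 6 weeks but not at 1 week (adjusted p = 0.058). Mrpl55, grouped here with the mitochondria-specific large subunit proteins, went from 9.71 and 9.58 in sham RV to between 9.16 and 9.52 after PAC. It fell by 0.31 ± 0.09 (limma adjusted p = 0.031).

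Small subunit genes that fell began with Mrps35, a protein found only in mitochondrial ribosomes. It stood at 9.24 and 9.12 in sham RV, at 8.91 and 8.71 after 1 week, at 8.77 and 8.64 after 3 weeks and at 8.77 and 8.70 after 6 weeks. All 6 PAC arrays were below both sham RV arrays, and the sham LV (9.07 and 8.88) and TAC (8.95 and 8.91) arrays were below sham RV as well. Its change was -0.43 ± 0.08 (limma adjusted p = 0.0094), and it was called lower at each time. Mrps15, an early binder of the small ribosomal RNA, read 10.99 and 11.04 in sham RV and 10.63 to 10.86 after PAC, a change of -0.29 ± 0.08 (limma adjusted p = 0.024). Mrps7, a protein of the small subunit's head, read 9.63 and 9.67 in sham RV and 9.27 to 9.44 after PAC. It fell by 0.26 ± 0.07 (limma adjusted p = 0.024). Mrps24 read 8.63 and 8.53 in sham RV and 8.26 to 8.42 after PAC, a change of -0.25 ± 0.08 (limma adjusted p = 0.047).

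The 3 genes that rose all encode large subunit proteins. Mrpl32 must be cut by the inner-membrane m-AAA protease before it is built into the ribosome. It read 7.99 and 7.83 in sham RV, 8.23 and 8.21 after 1 week, 8.18 and 8.11 after 3 weeks and 8.29 and 8.18 after 6 weeks, while the sham LV arrays read 8.32 and 8.43 and the TAC arrays 8.61 and 8.45. Sham RV was thus below every other array. Mrpl32 rose by 0.29 ± 0.08 (limma adjusted p = 0.025), a 1.22-fold increase. Mrpl35, with a bacterial relative, went from 9.52 and 9.37 in sham RV to between 9.62 and 9.74 after PAC, a change of 0.24 ± 0.07 (limma adjusted p = 0.031). Mrpl50, mitochondria-specific, went from 8.95 and 8.79 to between 9.06 and 9.15, a change of 0.24 ± 0.07 (limma adjusted p = 0.035). With cyclic loess in place of the deposited scaling, these 3 were positive but not called (adjusted p from 0.11 to 0.18), 20 genes of the family fell and 0 rose, and the calls among all genes were 1724 higher and 1321 lower in place of 2426 and 2515.

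**Figure D2:**
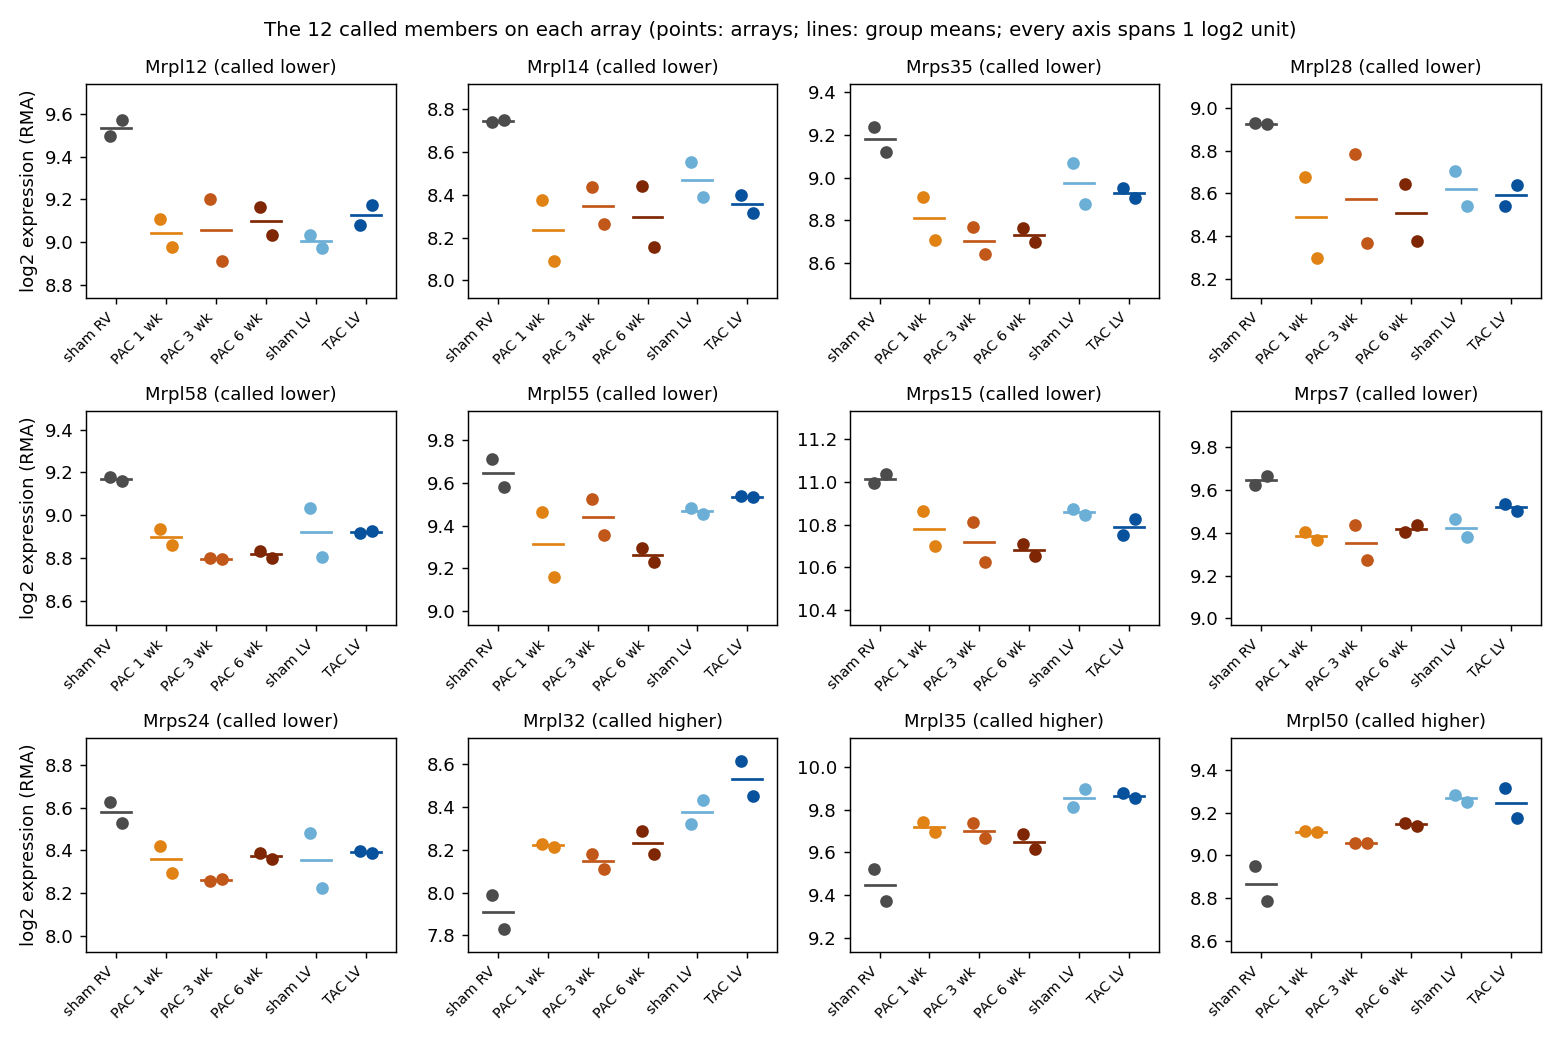
Log2 expression (y axis) of the 12 called genes on each array, by group (x axis); points are arrays and lines are group means, and every panel spans 1 log2 unit. In each panel both sham RV arrays lie on one side of the other 10 arrays, above them for the 9 genes called lower and below them for the 3 called higher. The genes were chosen by their change from sham RV, which partly sets this arrangement.

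These 12 genes were chosen by their change from the sham RV arrays. Where those arrays stand against the left ventricle is thus partly set by that choice. No share over all called genes is given for the arrangement that follows. All 9 genes that fell were higher on both sham RV arrays than on any of the other 10, and all 3 that rose were lower. The LV arrays do not enter these changes, but they enter the pooled spread behind the calls: a fit to only the arrays compared lost 7 of the 12 calls, leaving out 1 TAC array lost 2 and leaving out 1 sham LV array lost 1. Over the whole family, sham RV was above all 10 other arrays in 16 genes (20.8%, against 14.3% of all genes and 9.2% of genes above the median level) and below all of them in 4 (5.2%, against 12.4% and 22.4%). The upper quartile of all genes was lowest on the sham RV arrays, at 8.21 and 8.15 against 8.24 to 8.32 elsewhere, and its part in these results was not tested. Without 1 of the sham RV arrays, which leaves a single array in that group, most or all of the 12 calls were lost. Shares of all genes called with arrays left out are not given. A loss of calls in the family thus cannot be told from a loss over the whole array. Without the second PAC 1 week and second sham LV arrays, 1 gene rose and 5 fell.

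Other cell types moved with clipping. Fibroblast markers had mean levels of 9.32 to 9.37 in sham RV and 10.1 to 11.2 after PAC, and 6 of 8 were called higher. Atrial markers went from 6.80 to 7.39 in sham RV to 8.44 to 10.7 after PAC, with 5 of 6 called higher. Macrophage markers were called higher in 3 of 8, endothelial markers in 5 of 6 and proliferation genes in 5 of 5. Of 4 brown fat markers 1 rose and 1 fell, and the 1 blood marker measured was not called. Of the 8 cardiomyocyte markers 1 rose (Mybpc3) and 2 fell (Ryr2 and Tnni3). The mean of the 9 genes that fell was 9.39 and 9.37 in sham RV; at each PAC time, the array with the lower mean of these genes was also the one with the higher fibroblast and atrial mean. At 1 week, for example, that array had 8.94 against 9.13 for the 9 genes and 11.2 against 10.3 for fibroblast markers. In sham LV and TAC, the array with the lower mean of these genes had the lower fibroblast and the higher atrial mean. In sham LV it had 9.05 against 9.19 for the 9 genes and 9.45 against 9.94 for fibroblast markers. In sham RV, the array with the lower mean of these genes had the higher fibroblast and the lower atrial mean. The 9 genes were chosen by their change with clipping, and the order within PAC pairs was not particular to them. The mean over all 77 genes, and that over 80 respiratory chain and ATP synthase genes, was lower on the same array of each PAC pair. The mean over cytosolic ribosomal protein genes had the opposite order at 1 week. The part of fibroblast, atrial and other cell types in the result was not tested.

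The single times gave fewer calls and share the same 2 sham RV arrays, so they are not independent of one another. At 1 week, 2 of the 77 genes rose (Mrpl32 by 0.31 and Mrpl35 by 0.27) and 3 fell (Mrpl14, Mrpl12 and Mrps35, by 0.51, 0.49 and 0.37). Over all genes, 9.57% were called higher and 8.86% lower at that time. At 3 weeks 0 rose, with 3 positive at an unadjusted limma p under 0.05, and 3 fell (Mrpl12 by 0.48, Mrps35 by 0.47 and Mrpl58 by 0.37), against a background of 3.22% higher and 2.54% lower. At 6 weeks 0 rose, again with 3 positive at an unadjusted p under 0.05, and 4 fell (Mrps35 by 0.45, Mrpl12 by 0.43, Mrpl58 by 0.35 and Mrps15 by 0.33), against 5.52% higher and 3.73% lower. Mrpl23 and Mrps7 at 3 weeks (changes of -0.33 and -0.29) and Mrpl14 at 6 weeks (-0.45) came next and did not pass. With cyclic loess 0 genes of the family rose at any of the 3 times. The number that fell was then 9 at 1 week (11.7%, against 4.07% of all genes), 6 at 3 weeks (7.79%, against 1.08%) and 10 at 6 weeks (13.0%, against 2.88%). At 1 week the calls over all genes were 1363 higher and 811 lower in place of 1909 and 1766. The shares of all genes given so far are from fits to all arrays. No such share is given for the fits with an array left out that follow. A loss or gain of calls in the family there cannot be told from one over the whole array. The 1 week calls went to 0 without the second PAC 1 week array or the second sham RV array, to 1 without the first sham RV array, to 2 without either TAC array and to 3 without either PAC 6 week array. The 3 week calls went to 0 without the second PAC 3 week array, either sham RV array or either TAC array. The 6 week calls went to 0 without the second PAC 6 week array or the second sham RV array, to 1 without the first sham RV array or either TAC array and to 2 without either sham LV array, and they were 7 without either PAC 1 week array.

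Between 1 and 6 weeks of clipping, which does not involve sham RV, no gene of the family was called by limma, and 0 of 77 had an unadjusted p under 0.05. Over all genes 0.0351% were called higher and 0.0602% lower at 6 weeks, and 852 and 1092 had an unadjusted p under 0.05. The 5 smallest p-values belonged to Mrpl52 (-0.16 ± 0.08), Mrpl10 (-0.14), Mrps2 (-0.17), Mrpl27 (-0.16) and Mrps10 (0.18), with adjusted p of 0.55 or more. The 77 changes ran from -0.17 to 0.18. Mrpl12 differed by 0.06 ± 0.11 between these times and Mrpl32 by 0.01 ± 0.10.

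By position in the ribosome, the small subunit proteins with bacterial relatives had the lowest median change after clipping, -0.19 over 16 genes, of which 14 were negative, 3 fell and 0 rose. Large subunit proteins with bacterial relatives had a median of -0.06 over 29 genes (3 fell, 2 rose), and mitochondria-specific large subunit proteins -0.10 over 21 genes (2 fell, 1 rose). The 10 mitochondria-specific small subunit proteins had a median of 0.01, with Mrps35 the only call. In the same comparison 12.6% of all genes were called lower and 12.2% higher, with a median of -0.05. Of genes above the median level 7.83% were called lower and 21.5% higher, with a median of 0.07. The shares that fell in the first 3 groups named were 18.75%, 10.3% and 9.52%, each resting on few genes. The structural groups were set by lists of symbols and compared by counts and medians alone, without a test of the difference, so they are not shown to differ in response. The 3 Mrps18 paralogs sit in different places: Mrps18a, in the large subunit, changed by -0.16 ± 0.06 (adjusted p = 0.075), Mrps18b by -0.07 ± 0.07 and Mrps18c by 0.08 ± 0.08, and none of the 3 was called. Mrps30, also a large subunit protein despite its name, changed by -0.06 ± 0.09. Mrpl41, a mitochondria-specific large subunit protein, changed by -0.02 ± 0.10. Mrps36, now known as a subunit of the 2-oxoglutarate dehydrogenase complex rather than of the ribosome, changed by -0.08 ± 0.08.

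**Figure D3:**
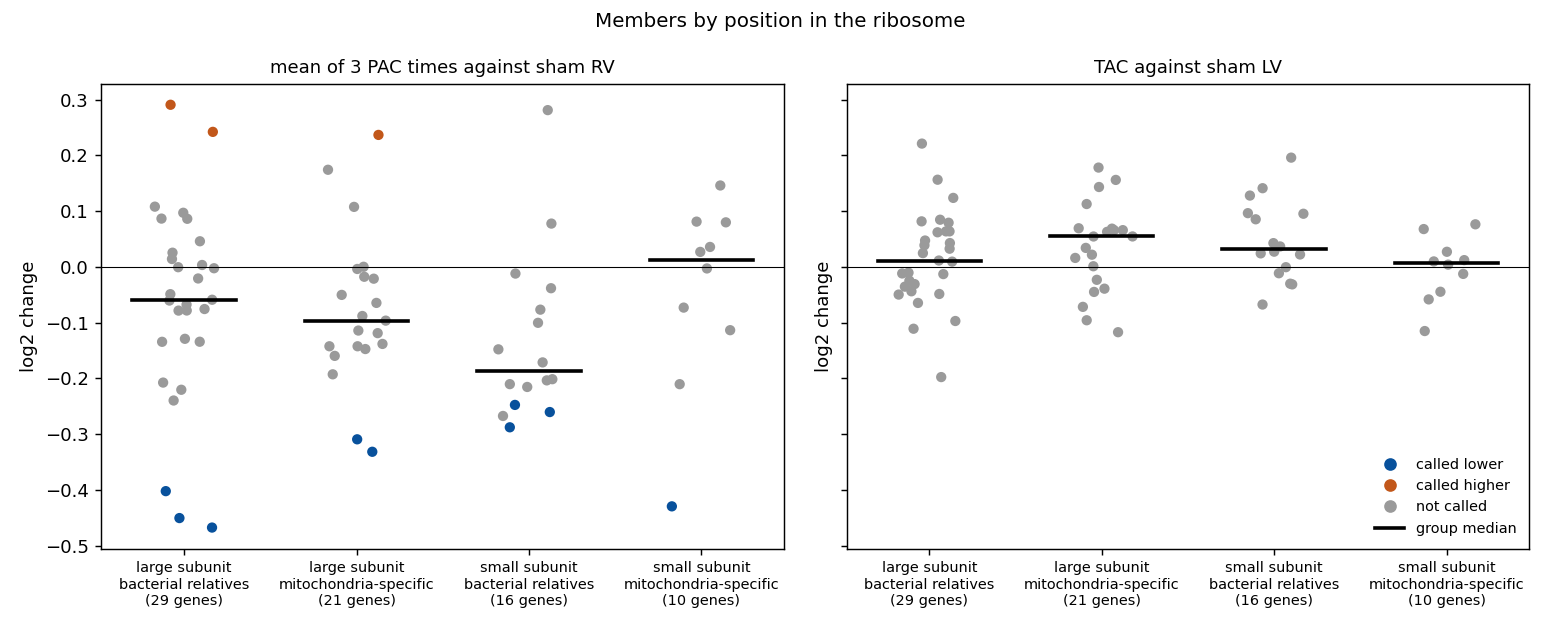
Log2 change (y axis) of the mitochondrial ribosomal protein genes by structural group (x axis) for the mean of the 3 PAC times against sham RV (left) and TAC against sham LV (right); points are genes, coloured by call, and lines are group medians. Mrps36 is left out; the small subunit genes with bacterial relatives have a median of -0.19 on the left and 0.03 on the right.

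Aortic constriction was compared with sham LV to ask whether pressure load did the same in the left ventricle. No gene of the family was called by limma, and 2 were higher and 0 lower at an unadjusted p under 0.05. The background was 0.0% in each direction, with 378 genes higher and 585 lower at an unadjusted p under 0.05, so nothing passed anywhere on the array. The median change of the family was 0.02, with 49 positive and 28 negative. It was -0.02 over all genes and 0.00 over genes above the median level. Both TAC arrays were above both sham LV arrays in 24 genes (31.2%, against 18.2% of all genes) and below both in 9 (11.7%, against 23.1%). Mrps18a read 9.25 and 9.19 in sham LV and 9.40 and 9.39 after TAC, a change of 0.18 ± 0.07. Mrpl33 read 8.04 and 7.86 in sham LV and 8.21 and 8.13 after TAC, a change of 0.22 ± 0.09. Mrps18c (0.20), Mrpl57 (0.16) and Mrps36 (0.17) followed. All 5 had an adjusted p of 0.98.

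The change at 3 weeks of PAC minus the change with TAC was tested as an interaction. No gene passed, in the family or over the array (0.0% in each direction); at an unadjusted limma p under 0.05, 8 of the 77 were lower and 1 higher, and over all genes 1202 were lower and 1179 higher. The differences of the 5 genes with the smallest p were -0.60 ± 0.15 for Mrpl12, -0.39 ± 0.12 for Mrps7, -0.37 ± 0.13 for Mrpl58, -0.43 ± 0.15 for Mrps35 and -0.31 ± 0.11 for Mrps18a, with adjusted p from 0.35 to 0.37. The median difference over the family was -0.11, against -0.02 over all genes. In 11 genes both PAC 3 week arrays were below both sham RV arrays while both TAC arrays were above both sham LV arrays, which is 14.3% of the family against 3.44% of all genes; they were Mrpl1, Mrpl12, Mrpl20, Mrpl51, Mrpl52, Mrpl55, Mrps7, Mrps11, Mrps18a, Mrps28 and Mrps36. The opposite arrangement occurred in 0 of the 77 and in 3.28% of all genes.

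Sham RV against sham LV asks whether the unloaded chambers differed. No gene of the family passed in limma, although 7 were higher and 11 lower at an unadjusted p under 0.05. Over all genes 0.0752% were called higher and 0.336% lower in sham RV, and 1920 and 2203 had an unadjusted p under 0.05. The nearest were Mrpl32, lower in sham RV, with a difference of -0.47 ± 0.10 (adjusted p = 0.053), Mrpl12, higher by 0.53 ± 0.11 (adjusted p = 0.054), Mrpl35 (-0.41, adjusted p = 0.057), Mrpl50 (-0.40, adjusted p = 0.064) and Mrpl44 (-0.47, adjusted p = 0.070). Mrpl44, a large subunit protein whose defects cause infantile cardiomyopathy, read 9.40 and 9.15 in sham RV, 9.72 and 9.78 in sham LV and 9.31 to 9.54 after PAC. The median difference was -0.04, against 0.02 over all genes and -0.07 over genes above the median level. With cyclic loess the median of the family was 0.06. The calls over all genes were then 28 higher and 54 lower in place of 15 and 67. With a trended and robust prior 1 gene of the family was called higher and 6 lower. The same numbers were called when genes below the median level were left out. Shares of all genes called under these settings are not given, so these counts do not set the family apart from the array.

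Genes that work with the mitochondrial ribosome were counted in the same comparison, the mean of the 3 PAC times against sham RV. Among all genes 12.6% were called lower and 12.2% higher there. Of 4 ribosomal proteins with other symbols, 2 fell: Chchd1 by 0.31 ± 0.09 (limma adjusted p = 0.036) and Gadd45gip1 by 0.31 ± 0.07 (limma adjusted p = 0.015); Dap3 and Ptcd3 changed by -0.14 and -0.03. Of 26 factors that assemble the ribosome or modify its RNA, only Mrm1, a methyltransferase of the large ribosomal RNA, was called (-0.35; 0 of 26 without the second PAC 1 week and second sham LV arrays), and the list's median was -0.05. None of 15 translation factors and messenger RNA stabilisers was called, and their median was 0.02. Among 19 mitochondrial tRNA synthetases and amidotransferase subunits 1 rose (Rars2, the arginine enzyme, by 0.38) and 0 fell. Of 13 genes for mitochondrial DNA maintenance and transcription, Tefm, a transcription elongation factor, rose by 0.33, while Mgme1, a nuclease, and Hsd17b10, a subunit of mitochondrial RNase P, fell by 0.38 and 0.26.

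Respiratory chain and ATP synthase subunits fell in 23 of 80 genes (28.8%, against 12.6% of all genes) and rose in 0, with a median of -0.17. The largest decreases were those of Atp5e (0.68), Cox6b2 (0.58) and Uqcr11 (0.48). Without the second PAC 1 week and second sham LV arrays the number called was 15. Atp5e, a subunit of ATP synthase, was also called higher in sham RV than in sham LV, by 0.60 (limma adjusted p = 0.045). Cytosolic ribosomal proteins fell in 5 of 60 (8.33%, against the same 12.6%) and rose in 0, with a median of -0.04; Rpl3l, a form typical of striated muscle, fell by 0.61, Rpl36 by 0.48 and Rpl37a by 0.39. Both lists, like the mitoribosomal genes, had more negative than positive changes (71 of 80 and 38 of 60). Of 10 nuclear regulators of mitochondrial genes, Myc rose by 0.69 (limma adjusted p = 0.021) and Esrra, an oestrogen-related receptor, fell by 0.35 (limma adjusted p = 0.017). Ppargc1a, the coactivator that heads mitochondrial biogenesis, changed by -0.15 ± 0.15 (adjusted p = 0.48), and Tfam, which packages mitochondrial DNA, by 0.20 ± 0.09 (adjusted p = 0.12).

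Over the single comparisons these 4 regulators were called in few. Myc rose at 1 week of clipping by 0.94 (limma adjusted p = 0.020) and differed by 0.54 at 3 weeks and 0.58 at 6 weeks without passing. Esrra fell at 1 week by 0.35 and at 3 weeks by 0.42 and differed by -0.29 at 6 weeks without passing. Neither Ppargc1a nor Tfam passed at any PAC time. With TAC none of the 4 was called, and their changes were 0.29 for Myc, -0.03 for Esrra, -0.30 for Ppargc1a and 0.14 for Tfam. None of the 4 passed between 1 and 6 weeks of clipping (-0.37 for Myc, 0.06 for Esrra, 0.33 for Ppargc1a and 0.02 for Tfam) or in the interaction at 3 weeks (0.25, -0.39, 0.28 and 0.00 in the same order). In sham RV against sham LV the differences were -0.37 for Myc, 0.27 for Esrra, -0.07 for Ppargc1a and -0.32 for Tfam, and none passed.

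**Figure D4:**
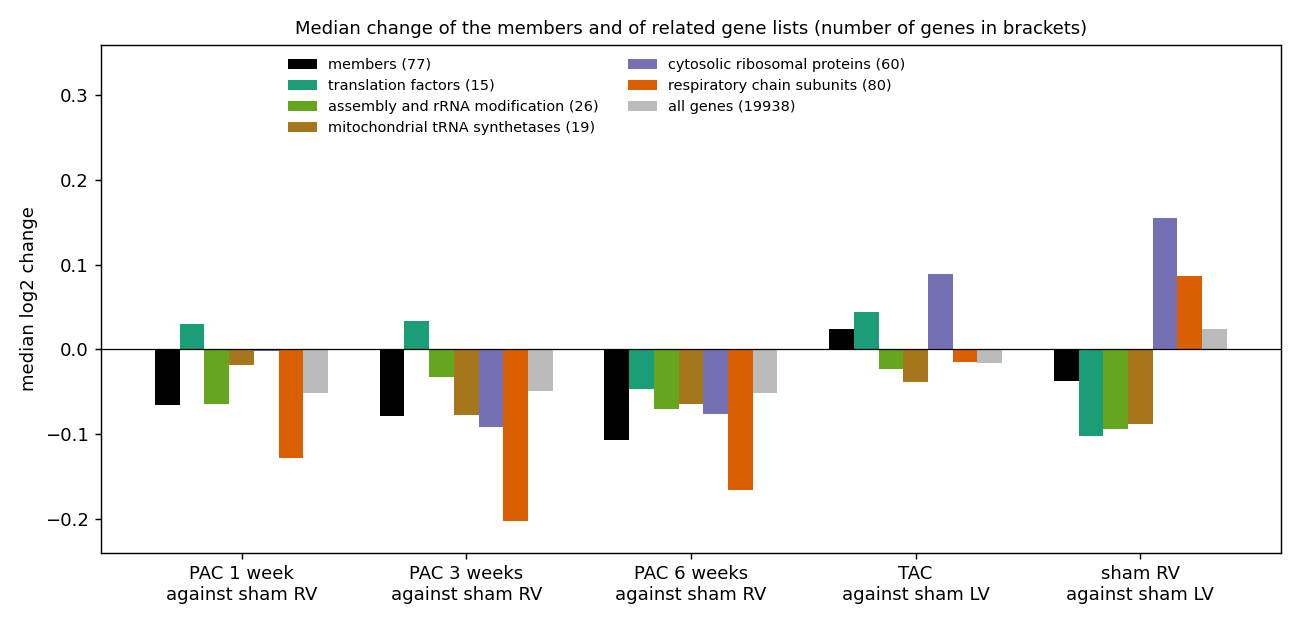
Median log2 change (y axis) of the mitochondrial ribosomal protein genes, 5 related gene lists and all genes in 5 comparisons (x axis); bars are medians over the genes of a list, with no error. The mitoribosomal medians are -0.07, -0.08 and -0.11 at the 3 PAC times and 0.02 with TAC, and the respiratory chain medians at the PAC times are -0.13, -0.20 and -0.17.

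The promoters of the family were read from RefSeq (mouse GRCm38.p6) as windows from 250 bases before to 50 after each annotated start; 68 of the 77 genes matched, with 74 windows, against 21262 windows of protein-coding genes. Exact matches on either strand were counted for the cores of factors known to regulate nuclear genes for mitochondria. The NRF1 core GCATGCGC was in 10.8% of the family's windows and 3.51% of all windows. The ETS core CCGGAAG, bound by GABP, was in 33.8% against 11.6%, and the YY1 core AAGATGGC in 16.2% against 3.05%. The core AAGGTCA of oestrogen-related receptors was in 5.41% against 4.08%, and the E-box CACGTG, bound by Myc among others, in 9.46% against 7.84%. Several of the family's windows with an E-box belong to Mrpl2. Counted by gene, the E-box was in 7.35% of the family against 8.91% of protein-coding genes. The other cores were more frequent in the family by gene as well. The ETS core can share its last letters with the YY1 core or the core of oestrogen-related receptors, and NRF1 matches on both strands share bases where the site is a palindrome. Matches of different cores shared bases in 1 of the 74 windows of the family and in 12 of all windows. A match describes letters and not binding.

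Stretches upstream of 3 genes are shown because they changed in opposite directions, and one more lies between 2 genes of the family; capitals mark matches to any of the 5 cores, and each stretch ends at the base before the start of the named gene.
Mrpl12: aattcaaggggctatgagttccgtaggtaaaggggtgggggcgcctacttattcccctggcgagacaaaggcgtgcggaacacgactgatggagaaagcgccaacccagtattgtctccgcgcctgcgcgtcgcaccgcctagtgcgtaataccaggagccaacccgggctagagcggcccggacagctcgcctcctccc
Mrpl58: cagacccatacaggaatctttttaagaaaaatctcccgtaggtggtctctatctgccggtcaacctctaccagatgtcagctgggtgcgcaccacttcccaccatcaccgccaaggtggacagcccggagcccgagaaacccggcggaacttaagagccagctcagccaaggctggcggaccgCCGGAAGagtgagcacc
Mrpl32: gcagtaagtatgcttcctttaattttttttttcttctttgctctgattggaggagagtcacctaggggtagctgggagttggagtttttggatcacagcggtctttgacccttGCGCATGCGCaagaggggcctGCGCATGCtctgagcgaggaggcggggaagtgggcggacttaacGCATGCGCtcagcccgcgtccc
Mrpl46: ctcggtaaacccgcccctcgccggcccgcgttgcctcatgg

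The Mrpl12 stretch (chr11:120484437-120484636, plus strand), upstream of the gene that fell most, holds none of the 5 cores; its counted window also takes in 50 bases from the start, where the core of oestrogen-related receptors begins at base 34. That of Mrpl58 (chr11:115403552-115403751, plus strand), which also fell, holds 1 ETS core, beginning 17 bases before the start, and another begins 2 bases before the start and runs past the end of the stretch. That of Mrpl32 (chr13:14613038-14613237, minus strand), which rose, holds 4 NRF1 matches, beginning 87, 85, 66 and 22 bases before the start, of which the first pair overlap in a palindrome; a YY1 core lies farther upstream, at 242 bases. The Mrpl32 stretch does not stand for the genes that rose: in their windows Mrpl35 had a YY1 core alone and Mrpl50 none of the 5. The Mrpl46 stretch (chr7:78783090-78783130, minus strand) is the whole gap between the starts of Mrpl46 and Mrps11, which are transcribed away from each other. It holds none of the cores.

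Such divergent neighbours were common in the family. Of the 68 genes with a window, 24 (35.3%) had another gene starting within 1000 bases upstream on the other strand, against 8.48% of protein-coding genes. Mrpl46 changed by 0.11 ± 0.06 and Mrps11 by -0.20 ± 0.09 after clipping, neither of them called. Of the genes that were called, Mrpl32 (0.29) lies 205 bases from Psma2, a proteasome subunit gene (change 0.00), Mrpl50 (0.24) lies 93 bases from Zfp189 (0.04), Mrpl14 (-0.45) 131 bases from Tmem63b (-0.24) and Mrps7 (-0.26) 224 bases from Gga3 (-0.18), and none of these 4 neighbours was called. Of 23 genes of the family with a measured neighbour (Mrpl46 and Mrps11 counted as neighbours of each other), 11 had a change of the same sign as the neighbour. 2 neighbours rose: Mitd1 by 0.60, beside Mrpl30 (-0.13), and Ska3, a gene of mitosis, by 0.74, beside Mrpl57 (0.00).

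Of the 8 genes with a second probe set, Mrpl47 gave the widest disagreement. Its brighter probe set changed by -0.05 and the dimmer by -0.63 after clipping, and in sham RV against sham LV they gave -0.25 and 0.44. Mrpl27, Mrpl41, Mrpl51, Mrps5 and Mrps36 also differed in sign in at least 1 comparison, by smaller amounts. At the mean of the PAC times, for example, Mrpl27 gave 0.00 and 0.05. The 2 probe sets of Mrpl23 (-0.22 and -0.22) and of Mrps33 (0.08 and 0.08) gave nearly the same change.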

How the data were processed

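RNA of right or left ventricles was measured on 12 Affymetrix arrays, 2 per group. The authors deposited log2 values that, per the submitters' processing notes, were made by RMA with Affymetrix Power Tools; their versions, and a genome build, are not named in those notes. The number of arrays limits the precision. Of 35556 probe sets, 21789 had a single gene in the platform annotation and 1621 had several and were not used; the brightest probe set per gene gave 19938 genes. limma 3.58.1 (R 4.3.3) was fitted to all 12 arrays with 1 mean per group (6 residual and 4.6 prior degrees of freedom), p-values were adjusted by Benjamini-Hochberg over all genes, and the fit was tested on simulated data. The 8 comparisons include the mean of 3 PAC times and the interaction at 3 weeks.

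The genes, lists and tests were chosen with earlier results of these data known. Genes of the family named per comparison were the called ones, up to 10 in each direction, or, with fewer than 5 called, the 5 with the smallest p; Mrpl12, Mrps36, Mrpl41, Mrps30 and the Mrps18 genes, the extremes of signal and range, disagreeing probe sets, and up to 3 called genes per list with Ppargc1a, Esrra, Tfam and Myc were also named. Mrpl46, Mrps11, the neighbour genes, the rest of the short lists and the genes moving oppositely in the ventricles were named after their values were seen. Mrpl58, on a list of other symbols at first, fits the symbol rule and was counted there only. Lists were described by counts and medians. Blood markers had 1 gene measured, and the mean over the 4 brown fat markers stayed between 5.76 and 6.00 on every array. Alternatives were cyclic loess, the mean over probe sets, genes below the median level left out, a trended and robust prior, only the arrays compared, the replicate number as a block, each array left out in turn, and 2 arrays left out together.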

Additional observations from a re-analysis of the deposited data

How the results depend on the processing

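No called change turned direction under the alternatives run. Cyclic loess gave 9, 6, 10 and 20 called genes at 1, 3 and 6 weeks and for the mean of the PAC times (5, 3, 4 and 12 as reported), and medians of -0.15, -0.17, -0.19 and -0.16; the median for the interaction became -0.19 and that for sham RV against sham LV 0.0616. Leaving out genes below the median level gave 10, 8 and 11 at the single times and 7 for sham RV against sham LV. A trended and robust prior gave 10, 6, 10 and 7. These counts are of the family, both directions together. Shares of all genes under these settings are not given, so a gain in the family cannot be told from a gain over the whole array. With only the arrays compared the counts were 0, 1, 0 and 5. Without the second PAC 1 week and second sham LV arrays the counts were 0 at 1 week and 6 for the mean, and the medians were -0.00699 at 1 week and -0.0864 for 6 against 1 week. Leaving out 1 array at a time gave 0 to 7 called at 1 week, 0 to 3 at 3 weeks, 0 to 7 at 6 weeks, 0 to 17 for the mean and 0 to 1 for sham RV against sham LV; the medians ran from -0.109 to -0.00699 at 1 week, -0.166 to -0.0721 for the interaction, -0.0864 to 0.0198 for 6 against 1 week and -0.0590 to 0.0196 for sham RV against sham LV. The mean of the PAC times gave 2 without the first and 0 without the second sham RV array, and sham RV against sham LV gave 1 without either PAC 1 week array or without the first sham RV array. Respiratory chain calls were 15 with only the arrays compared and 15 without the 2 arrays (23 as reported), and assembly factor calls ranged from 0 to 6. The cause of these differences was not tested.

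The groups share replicate numbers, and correlations of same-numbered deviations ran from -0.24 to 0.37 over 15 pairs of groups, 5 of them over 0.1. Over all groups the numbers were therefore not taken to pair the arrays. The 3 PAC groups correlated with each other by number (0.26 to 0.37), as a hint from the data and not the design, while sham RV correlated with them by -0.09 to 0.02. With the number as a replicate block the counts were 6, 4, 6 and 14. Where 1 array is left out, the lone array of its group is assumed to vary like the other groups.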
